A study of Mus musculus with 9 samples.

Results

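Mitosis and spindle genes were followed as a set of 45 genes that drive chromosome segregation and cell division. They were chosen by gene name, and all 45 had an entry among the 29756 of the deposited table. All 45 also passed the filter for testing, an FPKM of at least 1 in at least 3 of 9 libraries, together with 11974 entries in all. FPKM is a read count scaled to gene length and library size, so levels can be compared between genes, while libraries can still differ in their overall scale.

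The libraries came from HT22, an immortalised mouse hippocampal line that divides in culture, and were made from total RNA. There were 3 libraries each of an experimental, an intervention and a control group. Hemin, the iron porphyrin of degraded haemoglobin, and a micelle called PPP8 appear in the title of the series. No agent, dose or time is given for any library, so the groups are called here by their label names alone, and what all 3 share is the cell line. Nothing in the labels says that replicates were separate cultures, and p-values measure the spread between these libraries, which may be technical.

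As background, a cell enters mitosis when CDK1 bound to A- and B-type cyclins becomes active, with Polo-like and Aurora kinases working beside it. Kinesin motors build and position the spindle, kinetochores tie chromosomes to its microtubules, and a checkpoint holds the anaphase-promoting complex back until all are attached. Most of these genes are transcribed mainly in G2 and M phase, under the MuvB complex with B-MYB and FOXM1, and are shut off by the DREAM complex in resting cells. Known elements of their promoters are the CHR element, with the letters TTTGAA, which MuvB binds, and CCAAT boxes bound by NF-Y.

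The promoters of 38 of the 45 genes could be read from RefSeq on GRCm38.p6, as 40 windows from 250 bases before to 50 bases after a transcript start in RefSeq. Counting either strand, TTTGAA stood in 32 of the 40 windows (80.0%), against 12% of the 10664 windows of all tested genes and 17.9% of all 32851 windows in the RefSeq table. CCAAT stood in 30 (75.0%), against 39.2% of the windows of tested genes and 37.4% of all windows. Both together were in 67.5% of the member windows, 4.98% of those of tested genes and 6.95% of all windows. The E2F-like letters GCGGGAA were in 0 of the 40 windows, against 8.68% of those of tested genes and 4.6% of all windows. TTTGAA began within 50 bases of that start in 28 of the 40 member windows (70.0%) and in 3.14% of the windows of tested genes, a distance chosen after the positions were seen. In 1 member window a TTTGAA and a CCAAT match overlapped. These are matches of letters, which describe the windows and do not show binding.

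Below are the 250 bases before a RefSeq transcript start of 6 genes, 1 for each role that had TTTGAA in this stretch, taken as the most abundant such gene of its role. They show where both kinds of letters lie in promoters of genes whose RNA was lower in the experimental libraries. Sequences run 5′ to 3′ on the gene's strand, which is minus for all 6, with TTTGAA or TTCAAA and CCAAT or ATTGG in capitals. Their positions on GRCm38.p6 are Cdk1 chr10:69352913-69353162, Cdc20 chr4:118437344-118437593, Kif2c chr4:117178773-117179022, Ckap2 chr8:22185820-22186069, Ect2 chr3:27153855-27154104 and Top2a chr11:99024190-99024439.
Cdk1: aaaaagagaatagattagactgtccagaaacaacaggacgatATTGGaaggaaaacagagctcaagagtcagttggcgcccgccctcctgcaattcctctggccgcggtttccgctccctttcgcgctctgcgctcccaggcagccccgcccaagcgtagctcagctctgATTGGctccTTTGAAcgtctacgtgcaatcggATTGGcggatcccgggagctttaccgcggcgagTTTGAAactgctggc
Cdc20: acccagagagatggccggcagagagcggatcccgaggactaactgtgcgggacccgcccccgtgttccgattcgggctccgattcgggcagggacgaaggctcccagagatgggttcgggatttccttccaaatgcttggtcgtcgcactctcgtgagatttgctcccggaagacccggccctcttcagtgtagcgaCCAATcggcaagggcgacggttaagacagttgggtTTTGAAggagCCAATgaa
Kif2c: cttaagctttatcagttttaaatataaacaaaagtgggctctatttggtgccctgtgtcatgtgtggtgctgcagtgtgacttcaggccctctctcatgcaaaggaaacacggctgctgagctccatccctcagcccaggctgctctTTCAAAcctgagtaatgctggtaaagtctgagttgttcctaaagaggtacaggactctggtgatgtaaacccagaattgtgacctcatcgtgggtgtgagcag
Ckap2: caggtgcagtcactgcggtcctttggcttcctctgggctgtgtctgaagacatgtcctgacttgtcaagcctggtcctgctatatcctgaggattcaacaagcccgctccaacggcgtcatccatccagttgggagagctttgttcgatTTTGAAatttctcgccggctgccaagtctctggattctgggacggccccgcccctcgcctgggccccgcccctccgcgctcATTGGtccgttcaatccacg
Ect2: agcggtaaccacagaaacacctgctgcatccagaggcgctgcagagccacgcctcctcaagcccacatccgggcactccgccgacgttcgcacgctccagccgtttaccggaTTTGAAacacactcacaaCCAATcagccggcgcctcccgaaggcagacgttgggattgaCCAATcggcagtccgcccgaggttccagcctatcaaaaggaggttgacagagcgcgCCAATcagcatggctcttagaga
Top2a: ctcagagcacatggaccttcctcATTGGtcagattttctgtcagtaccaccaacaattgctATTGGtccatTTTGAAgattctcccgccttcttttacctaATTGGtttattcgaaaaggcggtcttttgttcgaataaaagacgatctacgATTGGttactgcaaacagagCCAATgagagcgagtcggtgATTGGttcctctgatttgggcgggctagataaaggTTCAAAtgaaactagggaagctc
In Cdc20, TTTGAA begins 18 bases before the start and CCAAT 53 and 8 bases before it. Top2a has 2 TTTGAA and 6 CCAAT matches in this stretch, the most of these 6, and Kif2c has 1 TTTGAA match and no CCAAT match. The Kif2c stretch precedes a RefSeq start that lies inside the span of the gene given with its values, not at its outermost start.

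Summed FPKM was 316912 to 339943 per library, and the read depth behind it is unknown. Across tested entries, which are not independent replicates, log2 values correlated at 0.990 to 0.994 between libraries of a group. Experimental and intervention libraries correlated with each other at 0.983 to 0.992, which overlaps that range, and with control libraries at 0.916 to 0.951. The median of all entries differed between groups as deposited, by -0.21 log2 units for experimental minus control, 0.095 for intervention minus experimental and -0.10 for intervention minus control. Median-ratio scaling, which centres the libraries on each other, brought these to -0.003, 0.001 and 0.004, so differences of the mitosis genes are also given against that median. Of 13 neuron markers, 2 passed the filter, Tubb3 and Syn1. The defining neuron markers Rbfox3, Map2 and Dcx averaged at most 0.147 FPKM in any group. All neuron markers together summed to 13.2 to 13.5 FPKM per experimental library, 10.1 to 12.3 per intervention library and 13.8 to 18.4 per control library. Astrocyte markers, 2 of 6 tested, summed to 10.5 to 10.7 FPKM, 9.97 to 11.3 and 9.31 to 10.3 in the same order. Microglia and blood markers summed to 1.18 to 2.45, 1.75 to 3.89 and 10.9 to 12.4 FPKM in the same order, of which Tmem119, the 1 of 7 tested, averaged 10.3 FPKM in control libraries, while the leukocyte marker Ptprc was listed at 0 in all experimental and intervention libraries. Oligodendrocyte and endothelium markers summed to at most 1.78 FPKM in any library. The part of these markers in the results below was not tested.

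The 45 genes summed to 836 ± 74.7 FPKM per experimental library, 1113 ± 96.6 per intervention library and 1402 ± 9.56 per control library (SD, n = 3 each). As a share of all FPKM this was 0.236% to 0.276% for experimental libraries, 0.305% to 0.358% for intervention libraries and 0.431% to 0.442% for control libraries, and the 3 ranges did not overlap. In bulk RNA a smaller share of dividing cells and less of these RNAs per dividing cell cannot be told apart.

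In control libraries Cdc20, Top2a, Mki67 and Ccna2 were the most abundant members, with means of 110.2, 110.0, 76.4 and 69.0 FPKM. Cdc20 and Top2a did not differ beyond their spread there, at 106, 111 and 114 and 110.3, 107 and 113 FPKM. Kif18a, Kif14 and Kif15, motors of chromosome alignment, cytokinesis and spindle bipolarity, were the lowest, at 2.74, 5.53 and 5.66 FPKM. Exons of 14 members share bases with a neighbouring gene, up to 1271 bases for Kif20a with Cdc23, 911 for Prc1 with Rccd1, 832 for Kif4 with Pdzd11 and 592 for Ube2c with Tnnc2. All 4 neighbours lie on the other strand, and without strand use, not given in the sources used here, reads of such pairs cannot be told apart.

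**Figure D1:**
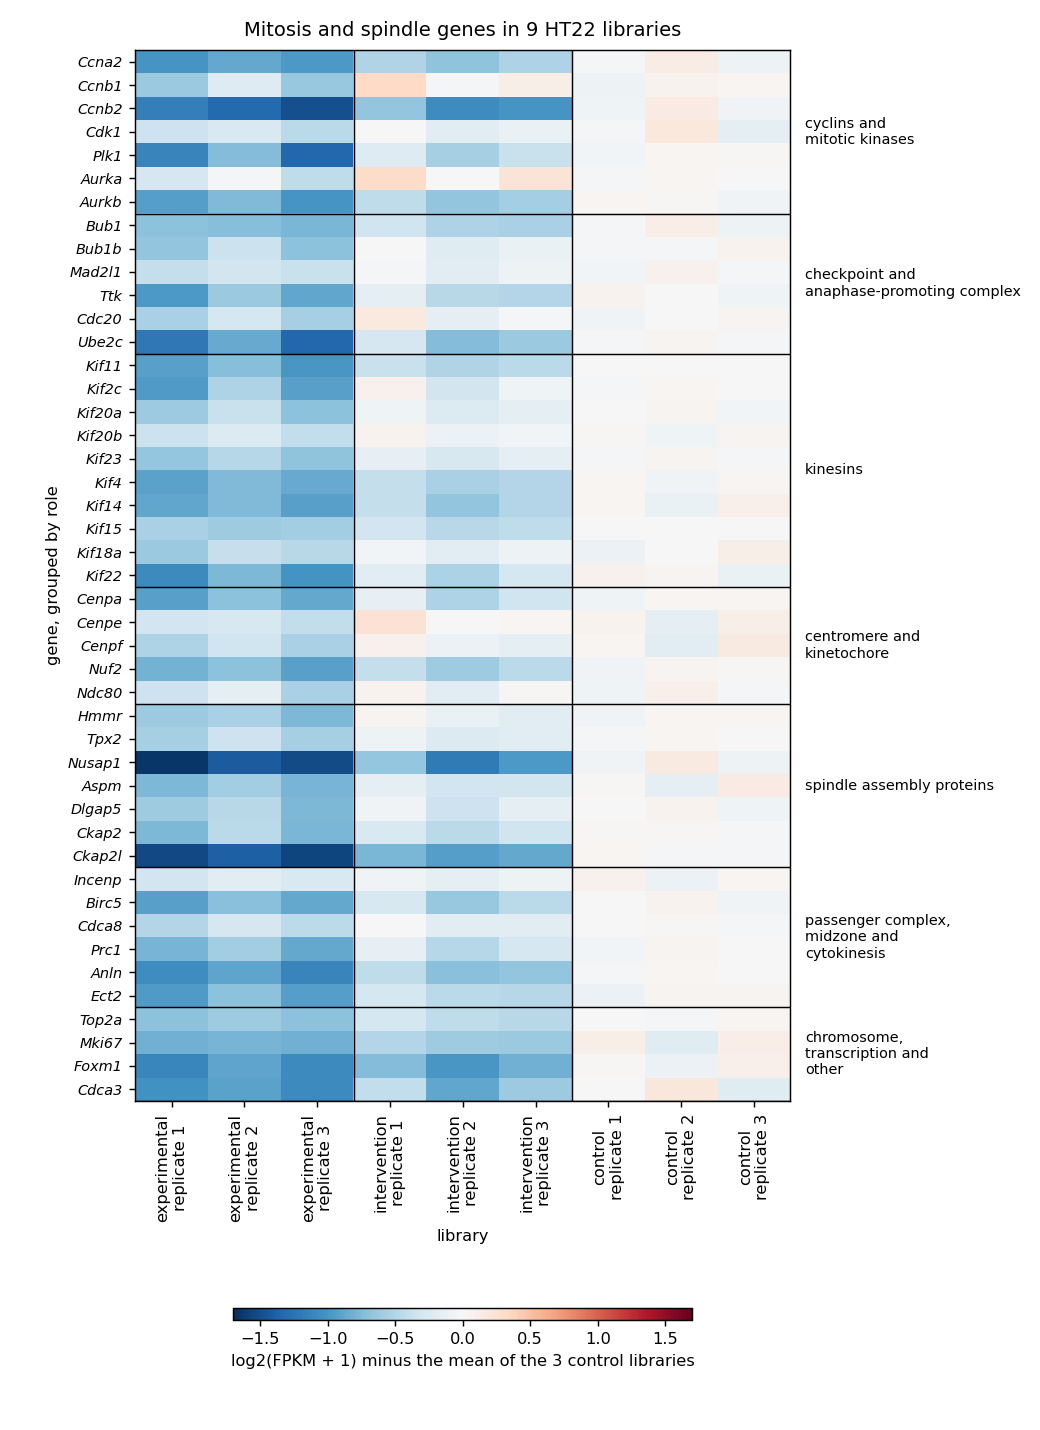
Each row is a member grouped by role and each column a library, with colour for log2(FPKM + 1) minus the mean of the 3 control libraries. Experimental columns are blue for nearly all genes and intervention columns paler, with Nusap1 and Ckap2l the darkest rows. Within its group experimental replicate 2 is highest for 42 genes and intervention replicate 1 for 45.

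The first comparison asks how the experimental group differed from control. Experimental libraries held less RNA for 44 of the 45 genes (adjusted p under 0.05, limma), and 0 were called higher. The median log2 difference was -0.73 and lay 0.52 below that of all entries. Single genes ranged from -1.53 for Nusap1 to -0.25 for Aurka. The comparison was broad, with 74.0% of all entries called, 50.5% lower and 23.5% higher. After median-ratio scaling 38 of the 45 genes were called lower, against 36.7% of all entries lower and 36.2% higher. Experimental and control values did not overlap for 44 of the 45 genes, against 51.5% of all entries lower and 24.7% higher without overlap. Every member stayed below 0 in each of the 17 alternative settings in which it was tested. Some of these, such as other filters and 2-group fits, leave the difference itself unchanged. For the 44 genes without overlap, another pseudocount or a left-out library could not turn the direction.

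Cyclins and mitotic kinases fell in 6 of 7 cases, with a median of -0.89. Ccna2, cyclin A2, which acts in S phase and at mitotic entry, was the most abundant of them, at 34.0, 37.3 and 34.5 FPKM in the experimental libraries, 48.1, 42.6 and 47.8 in the intervention libraries and 67.1, 75.1 and 64.8 in the control libraries. Its experimental values were all below its control values (log2 difference -0.95, SE 0.07, adjusted p = 1.16e-06), with intervention values in the gap between them. Ccna2 shares 510 exon bases with Exosc9 on the other strand, which itself was not called (log2 difference 0.15, adjusted p = 0.0789).

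Ccnb2, cyclin B2 (chr9:70407692-70421547, mm10), had the largest difference of the role, with 4.80, 4.19 and 3.61 FPKM in the experimental libraries, 7.16, 5.21 and 5.45 in the intervention libraries and 11.3, 13.3 and 11.4 in the control libraries. Its groups did not overlap, and the ratio of its experimental to control mean was 0.350 (log2 difference -1.33, SE 0.12, adjusted p = 3.62e-06). Ccnb1, cyclin B1, the main partner of CDK1 at mitotic entry, moved less, with 20.0, 27.1 and 19.8 FPKM in the experimental libraries, against 29.5, 32.8 and 32.3 in the control libraries (log2 difference -0.50, SE 0.12, adjusted p = 0.00417). All its experimental values were below control, but it did not pass once libraries were median-ratio scaled (adjusted p = 0.0556). Both have a pseudogene named after them in the table, Ccnb1-ps and Ccnb2-ps, at no more than 1.44 FPKM on average in any group, which could share reads with them.

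Plk1, the Polo-like kinase of centrosome maturation and spindle assembly, had 21.6, 28.5 and 18.6 FPKM in the experimental libraries, against 46.6, 49.4 and 48.8 in the control libraries, far below them in every library, a difference of -1.06 (SE 0.13, adjusted p = 4.36e-05). Aurkb, the kinase that corrects faulty attachments, fell by 0.89 on the log2 scale (adjusted p = 3.79e-06). Aurka, the centrosomal Aurora kinase (chr2:172356190-172370535), was the one member not called, with 19.9, 24.2 and 17.9 FPKM in the experimental libraries, against 24.0, 25.3 and 24.4 in the control libraries. Experimental replicate 2 lay within its control range (log2 difference -0.25, SE 0.11, adjusted p = 0.0548), and without that library Aurka was called as well (log2 difference -0.36, adjusted p = 0.00543). That library held its highest experimental value, so leaving it out could only widen the difference. Without experimental replicate 1 or 3 Aurka stayed uncalled (adjusted p = 0.131 and 0.208). With median-ratio scaling of all 9 libraries its difference was -0.013 (adjusted p = 0.913). Cdk1, the kinase that the cyclins activate, had 24.8, 26.8 and 23.2 FPKM in the experimental libraries, against 31.6, 36.3 and 28.8 in the control libraries (log2 difference -0.35, SE 0.088, adjusted p = 0.00417). It was not called once libraries were median-ratio scaled (adjusted p = 0.203).

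The spindle checkpoint and anaphase-promoting complex genes fell in 6 of 6 cases, with a median of -0.65. Cdc20, the activator of the anaphase-promoting complex, had 75.0, 89.2 and 73.8 FPKM in the experimental libraries, 124, 98.7 and 108 in the intervention libraries and 106, 111 and 114 in the control libraries. Its control values lay above all experimental values, while its intervention values spanned the control range (log2 difference -0.47, SE 0.092, adjusted p = 0.000888 for experimental minus control). Ube2c, the ubiquitin-conjugating enzyme that works with the complex, had 19.1, 24.9 and 17.5 FPKM in the experimental libraries, 37.2, 27.0 and 29.3 in the intervention libraries and 44.9, 47.1 and 45.1 in the control libraries. The 3 groups of Ube2c did not overlap, and experimental libraries held 0.449 of the control mean (log2 difference -1.13, SE 0.13, adjusted p = 2.55e-05). Among the checkpoint genes, the kinases Ttk and Bub1 fell by 0.83 and 0.73, the pseudokinase Bub1b by 0.58 and Mad2l1, which forms the inhibitor of Cdc20, by 0.37 on the log2 scale (adjusted p at most 0.000239).

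All 10 kinesins fell, from -0.96 for Kif22 to -0.34 for Kif20b, with a median of -0.71. Kif22, a motor that pushes chromosome arms, had 7.22, 9.22 and 7.56 FPKM in the experimental libraries, 14.2, 11.0 and 13.1 in the intervention libraries and 17.3, 16.9 and 15.0 in the control libraries. Its 3 groups did not overlap (log2 difference -0.96, SE 0.10, adjusted p = 1.61e-05). Kif20a, a motor of the central spindle and the most abundant kinesin here, had 22.3, 26.4 and 20.9 FPKM in the experimental libraries, 32.8, 29.4 and 30.7 in the intervention libraries and 34.7, 35.8 and 33.6 in the control libraries. Its groups were also apart, with the gap smaller between intervention and control than between either and experimental (log2 difference -0.57, SE 0.079, adjusted p = 8.79e-05). Cdc23, which overlaps it, fell too (log2 difference -0.51, adjusted p = 0.000495). Kif11, the motor that separates the spindle poles, fell by 0.88, Kif4, which condenses chromosomes and organises the midzone, by 0.84, and Kif2c, a microtubule depolymerase at centromeres, by 0.80 on the log2 scale (adjusted p at most 0.000157). Kif20b was the 1 kinesin not called with median-ratio scaling (adjusted p = 0.128).

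Centromere and kinetochore genes fell in 5 of 5 cases, with a median of -0.47, the smallest of the 7 roles. Cenpa, the histone H3 variant that marks centromeres, had 5.50, 6.60 and 5.73 FPKM in the experimental libraries, 10.2, 7.57 and 8.81 in the intervention libraries and 10.8, 11.7 and 11.6 in the control libraries. No 2 of its groups overlapped (log2 difference -0.83, SE 0.096, adjusted p = 2.38e-05). Cenpe, a kinetochore motor and the most abundant gene of the role, had 15.4, 16.0 and 14.4 FPKM in the experimental libraries, 23.5, 19.4 and 20.1 in the intervention libraries and 20.4, 17.4 and 21.1 in the control libraries. Experimental values were below all others, while intervention and control values overlapped (log2 difference -0.34, SE 0.087, adjusted p = 0.00478). The kinetochore partners Nuf2 and Ndc80, which bind microtubules as a pair, did not move by the same amount: Nuf2 fell by 0.81 (SE 0.073) and Ndc80 by 0.36 (SE 0.10) on the log2 scale, a difference between genes that was not tested. After median-ratio scaling Cenpe and Ndc80 were no longer called (adjusted p = 0.25 and 0.194).

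Spindle assembly proteins fell in 7 of 7 cases (median -0.67) and held the 2 largest differences of the set. Nusap1, which bundles microtubules around chromosomes (chr2:119618298-119651244), had 7.43, 9.0 and 8.32 FPKM in the experimental libraries, 15.9, 10.6 and 12.6 in the intervention libraries and 24.4, 28.5 and 24.1 in the control libraries. Its experimental mean was 0.321 of its control mean (log2 difference -1.53, SE 0.13, adjusted p = 2.38e-06). Nusap1 shares 172 exon bases with Oip5, a centromere gene on the other strand that fell by 1.14 (adjusted p = 4.5e-06). Ckap2l, a spindle pole protein, had 12.1, 13.5 and 11.8 FPKM in the experimental libraries, 21.0, 18.7 and 19.7 in the intervention libraries and 37.8, 36.4 and 36.3 in the control libraries, so the groups were far apart with a narrow spread within each (log2 difference -1.49, SE 0.062, adjusted p = 5.08e-08). Tpx2, which activates Aurora A on the spindle and is the most abundant gene of the role, had 31.0, 35.9 and 30.9 FPKM in the experimental libraries, 43.4, 39.3 and 40.3 in the intervention libraries and 45.2, 47.3 and 46.3 in the control libraries. Its 3 groups were apart by a few FPKM (log2 difference -0.49, SE 0.065, adjusted p = 5.92e-05). Hmmr, Aspm, Dlgap5 and Ckap2, which act at spindle poles and on spindle microtubules, fell by 0.64, 0.71, 0.61 and 0.67 on the log2 scale (adjusted p at most 0.000113).

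Genes of the chromosomal passenger complex, the spindle midzone and cytokinesis fell in 6 of 6 cases, with a median of -0.79. Anln, anillin, the scaffold of the contractile ring, had 23.2, 26.0 and 22.1 FPKM in the experimental libraries, 36.5, 30.0 and 30.8 in the intervention libraries and 49.0, 50.5 and 49.1 in the control libraries. Control values stood far above the others, and no 2 groups overlapped (log2 difference -1.03, SE 0.079, adjusted p = 1.47e-06). Ect2, the exchange factor that switches on RhoA at the cleavage plane, fell by 0.86, and Prc1, which crosslinks midzone microtubules, by 0.75 (adjusted p at most 3.58e-05). The passenger subunits differed in size: Birc5, survivin, fell by 0.83, Cdca8, borealin, by 0.41 and Incenp, the scaffold of the complex, by 0.26 on the log2 scale. Incenp, the most abundant gene of the role, had 35.8, 39.5 and 37.7 FPKM in the experimental libraries, 43.5, 40.4 and 42.7 in the intervention libraries and 47.5, 42.1 and 46.3 in the control libraries. Its groups lay close together (log2 difference -0.26, SE 0.06, adjusted p = 0.00268), and after median-ratio scaling it was no longer called (log2 difference -0.019, adjusted p = 0.773).

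The 4 other genes also fell, with a median of -0.91. Foxm1, the transcription factor that drives G2 and M phase genes, had 16.0, 18.7 and 16.4 FPKM in the experimental libraries, 20.9, 17.6 and 19.8 in the intervention libraries and 36.3, 33.1 and 37.9 in the control libraries. All control values were well above the rest (log2 difference -1.03, SE 0.081, adjusted p = 1.72e-06). Top2a, the topoisomerase that untangles sister chromatids, had 67.5, 72.3 and 67.3 FPKM in the experimental libraries, 89.0, 81.3 and 79.1 in the intervention libraries and 110.3, 107 and 113 in the control libraries (log2 difference -0.67, SE 0.055, adjusted p = 2.38e-06), without overlap between any 2 groups. The proliferation marker Mki67 fell by 0.81 and Cdca3, part of the ubiquitin pathway at mitotic entry, by 1.01 on the log2 scale.

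**Figure D2:**
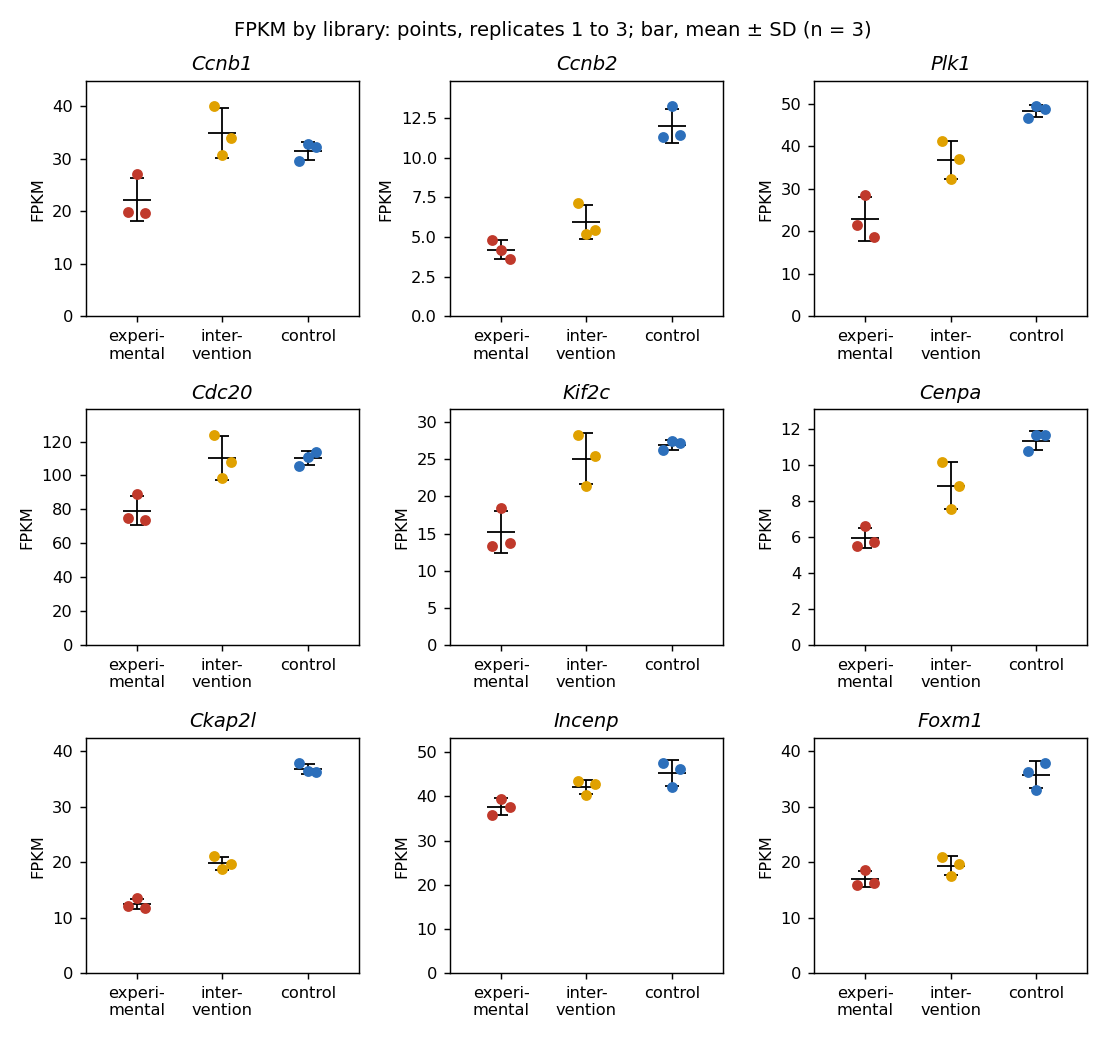
FPKM of 9 members in each library (y axis, from 0), with experimental, intervention and control groups along the x axis and the mean ± SD (n = 3) as bars. Ccnb1 and Cdc20 reach the control range in intervention libraries, while Ccnb2, Ckap2l and Foxm1 stay below it.

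The second comparison asks how the intervention group differed from the experimental group. Intervention libraries held more RNA for 39 of the 45 genes (adjusted p under 0.05, limma) and 0 were called lower, against 19.5% of all entries called, 15.9% higher and 3.6% lower. The median log2 difference was 0.41 and lay 0.32 above that of all entries, and single genes ranged from 0.16 for Incenp to 0.69 for Kif2c. In 43 of the 45 genes all intervention values lay above all experimental values, which held for 33.7% of all entries, with 8.79% the other way. After median-ratio scaling 25 were called higher, with 4.74% of all entries called higher and 7.86% lower. This comparison shares the experimental libraries with the first.

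The number of calls rested on single libraries, while the direction did not. It was 0 without experimental replicate 1 (lowest adjusted p = 0.0551), 1 without experimental replicate 3 and 1 without intervention replicate 1, where 0.00835%, 0.0334% and 0.0501% of all entries were called. In those 3 fits 43, 42 and 39 of the 45 genes had an unadjusted p under 0.05, as had 3355, 3375 and 3161 of the 11974 entries. All 45 genes stayed above 0, which was fixed in advance for the 43 whose groups did not overlap. Their median difference in the 3 fits was 0.38, 0.36 and 0.35. Without any filter on low values 8 were called. Experimental replicate 2 had the highest value of its group in 42 of the 45 genes, against 47.0% of all entries. Intervention replicate 1 was highest in its group in 45 of 45, against 45.9% of all entries, and intervention replicate 2 lowest in 38. The part of these library differences in the result was not tested. Without experimental replicate 2 the count was 38 and the median 0.47.

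Among cyclins and kinases 6 of 7 rose, with a median of 0.41. Plk1 had the largest difference of the role, with 41.2, 32.3 and 36.9 FPKM in the intervention libraries, against 21.6, 28.5 and 18.6 in the experimental libraries (log2 difference 0.68, SE 0.13, adjusted p = 0.0161). Ccnb1 stood at 40.0, 30.7 and 33.9 FPKM in the intervention libraries, against 20.0, 27.1 and 19.8 in the experimental libraries, so that its intervention mean was 1.57 times the experimental one (log2 difference 0.63, SE 0.12, adjusted p = 0.0161). Aurka rose too, with 30.9, 24.6 and 28.7 FPKM in the intervention libraries, against 19.9, 24.2 and 17.9 in the experimental libraries (log2 difference 0.43, SE 0.11, adjusted p = 0.0259), and missed the threshold with median-ratio scaling (adjusted p = 0.055), under which 3 of the 7 were called. Cdk1 was not called, although its groups did not overlap, at 32.1, 27.9 and 29.6 FPKM in the intervention libraries, against 24.8, 26.8 and 23.2 in the experimental libraries (log2 difference 0.25, SE 0.088, adjusted p = 0.0679, 95% interval 0.056 to 0.45).

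Checkpoint and anaphase-promoting complex genes rose in 6 of 6 cases (median 0.46), led by Ube2c (log2 difference 0.58, SE 0.13, adjusted p = 0.0212), with Cdc20 at 0.47 (adjusted p = 0.0161). Kinesins rose in 9 of 10 cases, with a median of 0.40. With median-ratio scaling 4 of the 6 and 7 of the 10 were called. Kif2c (chr4:117159639-117182639) had 28.3, 21.5 and 25.5 FPKM in the intervention libraries, against 13.3, 18.4 and 13.8 in the experimental libraries, the largest difference of all 45 genes (log2 difference 0.69, SE 0.12, adjusted p = 0.0153). Its lowest intervention value was above its highest experimental value. Kif15, which backs up Kif11 in keeping spindles bipolar, was the kinesin not called, at 4.33, 3.81 and 3.93 FPKM in the intervention libraries, against 3.56, 3.37 and 3.44 in the experimental libraries (log2 difference 0.17, SE 0.058, adjusted p = 0.061).

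Kinetochore genes rose in 5 of 5 cases, from 0.31 for Nuf2 to 0.50 for Cenpa, and spindle assembly genes in 7 of 7, from 0.32 for Ckap2 to 0.63 for Ckap2l. With median-ratio scaling 2 of the 5 and 6 of the 7 were called, and Nuf2 and Cenpf were not (adjusted p = 0.0622 and 0.0573). Ckap2l had the smallest adjusted p of the set (log2 difference 0.63, SE 0.062, adjusted p = 0.0088). For Ndc80 the groups overlapped by 1 library on each side, with 9.07, 7.51 and 8.77 FPKM in the intervention libraries, against 6.55, 7.57 and 5.58 in the experimental libraries, and its adjusted p of 0.0474 became 0.133 with median-ratio scaling. Cytokinesis and midzone genes rose in 5 of 6 cases, with the largest difference for Ect2, at 32.3, 29.0 and 28.4 FPKM in the intervention libraries, against 20.1, 24.4 and 20.4 in the experimental libraries (log2 difference 0.45, SE 0.081, adjusted p = 0.0153). Incenp was not called (log2 difference 0.16, SE 0.06, adjusted p = 0.0814), and 3 of the 6 were called with median-ratio scaling.

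Of the 4 other genes 1 rose, Top2a (log2 difference 0.26, SE 0.055, adjusted p = 0.0176), and 0 of the 4 were called with median-ratio scaling (Top2a log2 difference 0.15, adjusted p = 0.0718). Foxm1 was not called, and its intervention replicate 2 of 17.6 FPKM lay below experimental replicate 2 of 18.7 FPKM (log2 difference 0.18, SE 0.081, adjusted p = 0.134, 95% interval -0.0015 to 0.36). Mki67 had 53.7, 49.8 and 48.5 FPKM in the intervention libraries, against 42.6, 43.4 and 42.9 in the experimental libraries. Cdca3 had 15.9, 11.2 and 13.7 FPKM in the intervention libraries, against 10.0, 11.0 and 9.63 in the experimental libraries. Neither was called (adjusted p = 0.069 and 0.0602), though both had all intervention values above all experimental values.

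**Figure D3:**
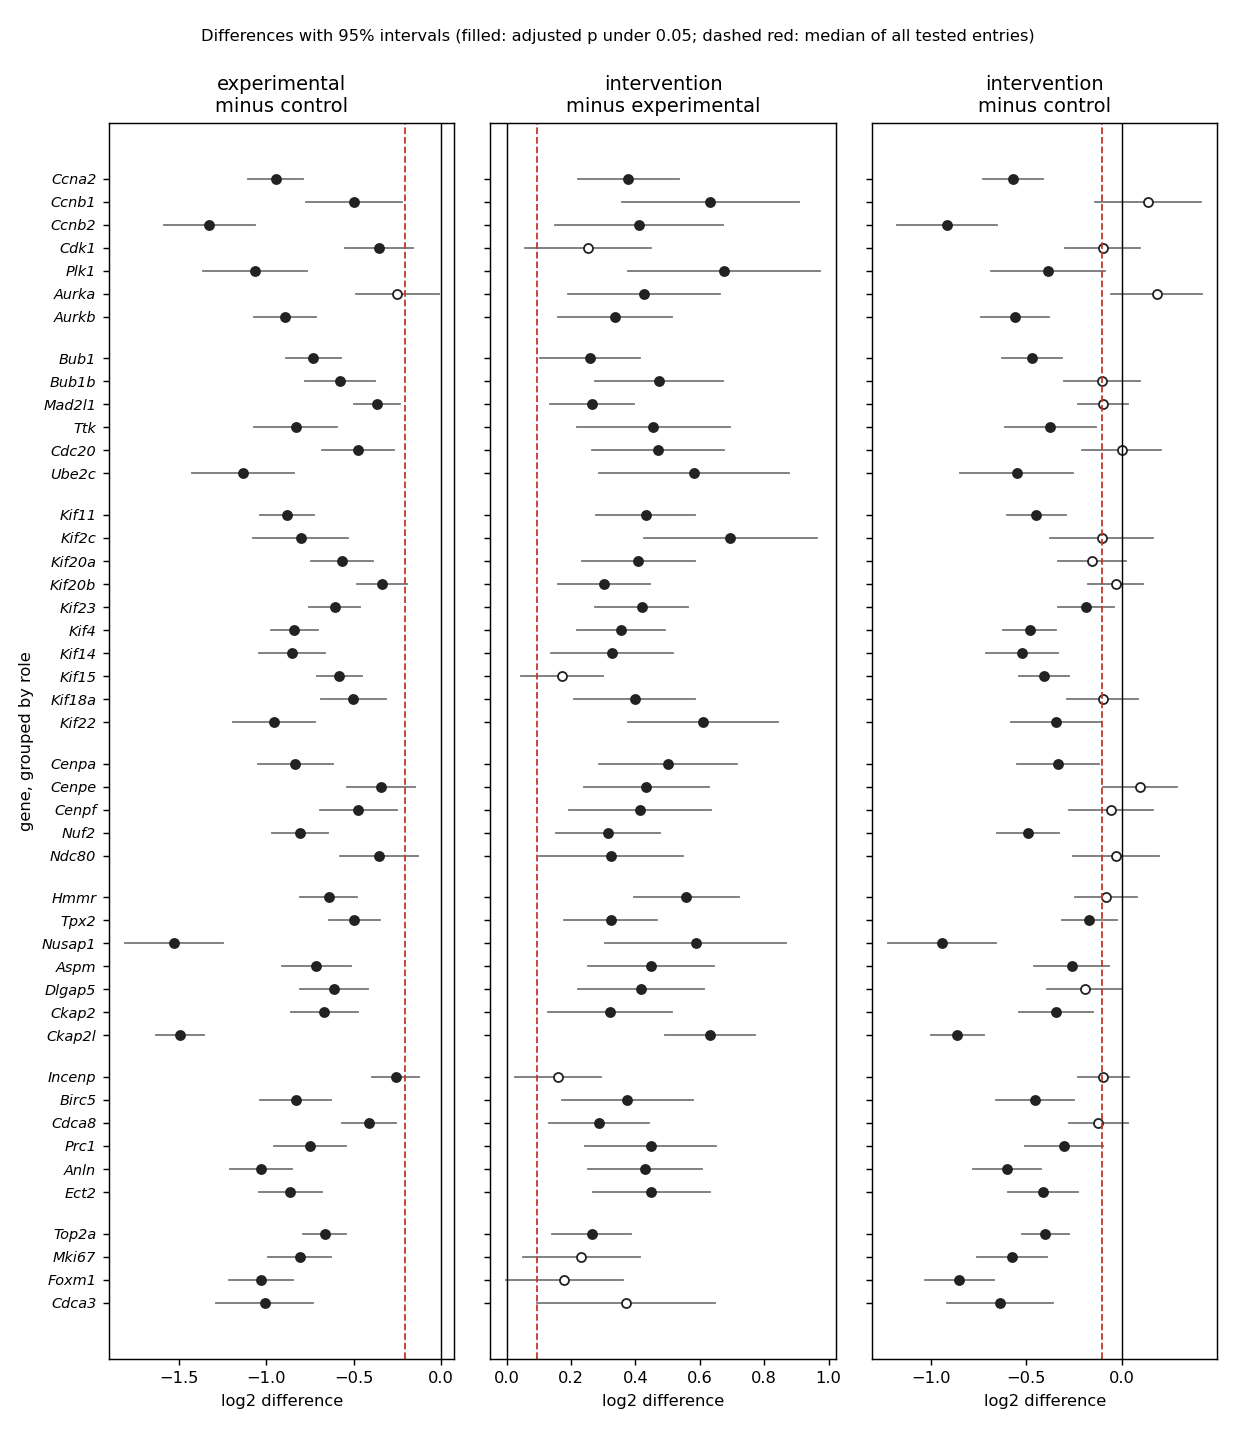
The log2 difference of each member (x axis, on the log2(FPKM + 1) scale) with its 95% interval in the 3 comparisons. Filled points have an adjusted p under 0.05 and the dashed line is the median of all tested entries. All 45 points lie left of 0 in the first panel and right of 0 in the second, and 17 are open in the third.

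The third comparison sets the intervention group against control. Intervention libraries held less RNA for 28 of the 45 genes (adjusted p under 0.05, limma), 0 were called higher and 17 were not called, while 65.3% of all entries were called, 41.1% lower and 24.1% higher. The median log2 difference was -0.35, 0.24 below that of all entries. After median-ratio scaling 22 were called lower and 2 higher, with 32.8% and 32.3% of all entries called lower and higher. Intervention values were below control values without overlap in 28 genes, against 42.9% of all entries lower and 25.8% higher without overlap.

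The roles differed in how many members stayed below control, a contrast that was not tested. All 4 of the other genes were lower (median -0.61), as were 4 of 7 cyclins and kinases (-0.39), 4 of 6 cytokinesis genes (-0.36), 6 of 10 kinesins (-0.27), 5 of 7 spindle assembly genes (-0.26), 3 of 6 checkpoint genes (-0.24) and 2 of 5 kinetochore genes (-0.059). Of all entries 41.1% were lower, near the shares of the checkpoint and kinetochore genes. With median-ratio scaling 4, 3, 3, 4, 3, 3 and 2 were lower in the same order, against 32.8% of all entries. Higher were then 1 of the cyclins and kinases and 1 kinetochore gene, and the kinetochore median was 0.059. Nusap1 and Ccnb2 had the largest differences, -0.94 (SE 0.13, adjusted p = 0.000104) and -0.91 (SE 0.12, adjusted p = 7.47e-05). Ckap2l (-0.86), Foxm1 (-0.85), Anln (-0.60) and Mki67 (-0.58) also remained lower (adjusted p at most 0.000145).

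Among kinesins the largest difference was that of Kif14, with 3.92, 3.11 and 3.62 FPKM in the intervention libraries, against 5.66, 5.04 and 5.90 in the control libraries (log2 difference -0.52, SE 0.085, adjusted p = 0.000363). Nuf2 led the kinetochore genes, with 12.5, 10.7 and 11.9 FPKM in the intervention libraries, against 16.1, 17.4 and 17.1 in the control libraries (log2 difference -0.49, SE 0.073, adjusted p = 0.000193), and Ube2c the checkpoint and anaphase genes (log2 difference -0.55, SE 0.13, adjusted p = 0.00418). With median-ratio scaling Plk1, Kif23, Kif22, Tpx2, Aspm and Prc1 were no longer called (adjusted p of 0.0536 to 0.48).

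The 17 genes without a call included Cdc20, Ccnb1, Aurka and Cenpe. Cdc20 differed by -0.0033 with a 95% interval of -0.21 to 0.20. Ccnb1, with 40.0, 30.7 and 33.9 FPKM in the intervention libraries, against 29.5, 32.8 and 32.3 in the control libraries, differed by 0.13 (-0.14 to 0.41). Aurka, with 30.9, 24.6 and 28.7 FPKM in the intervention libraries, against 24.0, 25.3 and 24.4 in the control libraries, differed by 0.18 (-0.057 to 0.41), and Cenpe by 0.092 (-0.10 to 0.29). Ccnb1, Aurka and Cenpe were the 3 members above 0 as deposited. After median-ratio scaling 13 members were above 0 and Aurka and Cenpe were called higher (adjusted p = 0.0169 and 0.0411). Kif2c (-0.38 to 0.16) and Dlgap5 (-0.39 to 0.0011) had intervals that reach well below 0, so these data do not show that their intervention and control levels were alike.

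**Figure D4:**
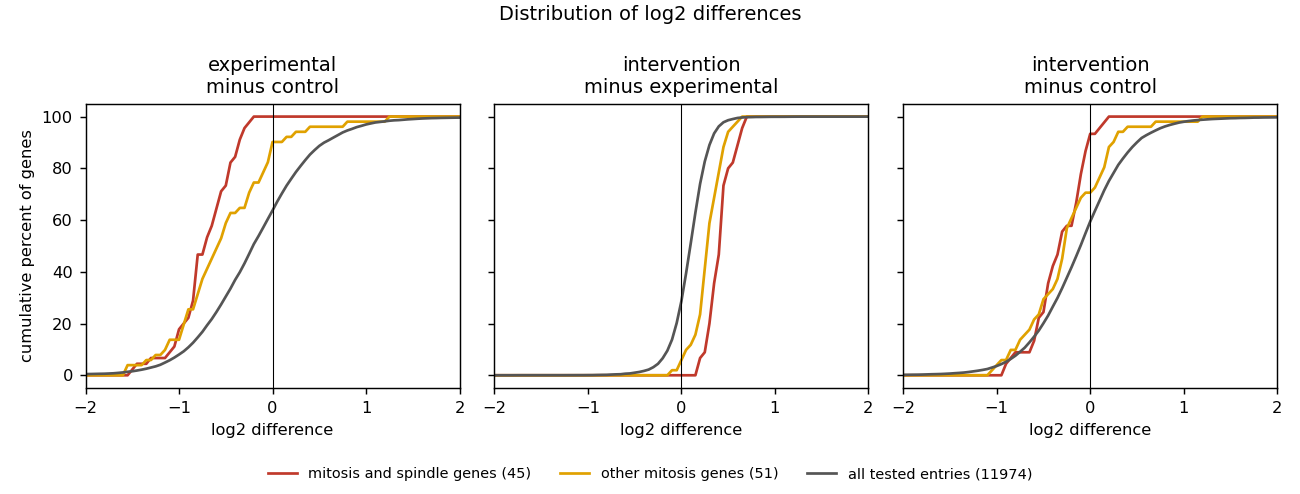
Cumulative percent of genes (y axis) by log2 difference (x axis) for the 45 mitosis and spindle genes, 51 other mitosis genes and all 11974 tested entries in the 3 comparisons. Over most of its length the members' curve lies left of all entries for experimental minus control and right of them for intervention minus experimental, and at the medians the other mitosis genes lie between them.

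Other genes of the cell cycle were counted in the same fits, so their calls for intervention minus experimental come from a fit whose calls rested on single libraries. Of 51 further mitosis genes, all tested, 37 were lower and 4 higher in experimental than in control libraries, with a median of -0.59. After median-ratio scaling these were 32 and 10. Of all entries 50.5% were lower and 23.5% higher (median -0.21), or 36.7% and 36.2% after that scaling. Spc25, a partner of Ndc80 at the kinetochore, averaged 3.28 ± 0.603 FPKM in experimental and 11.6 ± 0.941 in control libraries (SD, n = 3 each, log2 difference -1.57, adjusted p = 4.22e-07). Pimreg, a mitotic regulator, averaged 13.1 ± 2.30 and 40.3 ± 1.09 FPKM in the same order (adjusted p = 2.17e-06). The 4 that rose were Zwint, a kinetochore gene, Cdc25a, a phosphatase that activates CDKs, Cdca5, which protects cohesin, and Mis12, and they were named after their values were seen. Zwint averaged 109 ± 0.106 FPKM in experimental and 45.9 ± 2.20 in control libraries (log2 difference 1.23, adjusted p = 3.68e-08), against the direction of the set. For intervention minus experimental 35 of the 51 rose and 0 fell (median 0.28), and with median-ratio scaling 14 rose and 1 fell. The largest difference was that of Pimreg (log2 difference 0.61, SE 0.13, adjusted p = 0.0177). In this comparison 15.9% of all entries rose and 3.6% fell, or 4.74% and 7.86% with median-ratio scaling. For intervention minus control 7 of the 51 were higher and 30 lower (median -0.28), or 14 and 23 after median-ratio scaling. Of all entries 24.1% were higher and 41.1% lower (median -0.10), or 32.3% and 32.8% after that scaling. The share of the 51 called higher was thus no larger than that of all entries in either fit.

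Condensin subunits, which compact chromosomes, were lower in 7 of 8 cases in experimental than in control libraries (median -0.57). Ncapd2 led them (log2 difference -0.86, SE 0.081, adjusted p = 5.97e-06). With median-ratio scaling 6 were lower and 1 higher. Of all tested entries 50.5% were lower and 23.5% higher in this comparison, or 36.7% and 36.2% after median-ratio scaling. In intervention against experimental libraries 4 of 8 rose, or 0 after median-ratio scaling with 1 lower. Of all entries 15.9% rose and 3.6% fell there, or 4.74% and 7.86% with that scaling. Against control 7 of 8 were lower, also with that scaling. Of all entries 41.1% were lower and 24.1% higher there, or 32.8% and 32.3% with that scaling. Core subunits and partners of the anaphase-promoting complex were lower in 10 of 14 cases and higher in 0 in experimental than in control libraries, or 9 and 3 after median-ratio scaling. Anapc2, the cullin subunit, averaged 25.0 ± 2.29 FPKM in experimental and 51.5 ± 1.23 in control libraries (log2 difference -1.02, adjusted p = 1.61e-06). In intervention relative to experimental libraries 6 of 14 rose and 0 fell, or 1 and 0 after median-ratio scaling. Against control 2 were higher and 9 lower (3 and 6 with that scaling). The shares of all entries given for the condensins hold for these comparisons too.

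Of 20 genes of the MuvB, DREAM, B-MYB, E2F and NF-Y factors, 7 were higher and 6 lower in experimental than in control libraries. With median-ratio scaling these were 9 and 3. Of all entries 23.5% were higher and 50.5% lower, or 36.2% and 36.7% after that scaling. The pocket protein genes fell: Rbl2, of the DREAM complex, by 1.14, Rb1 by 0.83 and Rbl1 by 0.64 on the log2 scale (adjusted p at most 7.17e-06). Mybl2, which encodes B-MYB, was higher by 0.30 (adjusted p = 0.000692), named after its value was seen. In intervention against experimental libraries 3 of the 20 rose and 0 fell, close to the shares of all tested entries, of which 15.9% rose and 3.6% fell. With median-ratio scaling 1 rose and 2 fell, where 4.74% and 7.86% of all entries did. Relative to control libraries 5 were higher and 5 lower, where 24.1% of all entries were higher and 41.1% lower. The share that was higher was near that of all entries. With median-ratio scaling 10 were higher and 5 lower, where 32.3% and 32.8% of all entries were.

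DNA replication genes, of the phase before mitosis, were 5 higher and 7 lower of 19 in experimental than in control libraries, where 23.5% of all entries were higher and 50.5% lower. With median-ratio scaling 12 were higher and 3 lower, where 36.2% and 36.7% of all entries were. Cdc6 and Mcm10, which load and fire replication origins, averaged 26.1 ± 1.85 and 17.7 ± 0.408 FPKM in experimental and 16.1 ± 0.738 and 10.9 ± 0.423 FPKM in control libraries (adjusted p = 4.35e-06 and 2.38e-06). Gmnn, geminin, which blocks origin loading until mitosis ends, fell by 0.67 (adjusted p = 9.88e-05). In intervention relative to experimental libraries 2 of 19 rose, Gmnn and Rfc4, and 1 fell, Cdc6, where 15.9% of all entries rose and 3.6% fell. With median-ratio scaling 0 rose and 6 fell, where 4.74% and 7.86% of all entries did. Of 8 G1 and S phase cyclins and CDKs, 2 were higher and 4 lower in experimental than in control libraries. That was close to the 23.5% and 50.5% of all entries. With median-ratio scaling 4 were higher and 3 lower, where 36.2% and 36.7% of all entries were. Among the 4 lower as deposited were Ccnd1, cyclin D1 (log2 difference -0.88, SE 0.065, adjusted p = 1.17e-06), and Cdk4 (log2 difference -0.71, SE 0.065, adjusted p = 4.53e-06). Ccnd2, cyclin D2, was among the 2 that were higher (log2 difference 0.68, SE 0.090, adjusted p = 6.47e-05).

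Of 13 tested growth arrest genes 6 were higher and 7 lower in experimental than in control libraries, where 23.5% of all entries were higher and 50.5% lower. With median-ratio scaling these were 6 and 5, where 36.2% and 36.7% of all entries were. The share that was lower was near that of all entries in both fits. Cdkn1a, which encodes a CDK inhibitor, averaged 81.3 ± 3.87 FPKM per experimental library, 65.4 ± 4.18 per intervention library and 34.2 ± 3.42 per control library (SD, n = 3 each). Gadd45a, a stress gene that can block CDK1, averaged 59.2 ± 5.73, 46.5 ± 3.31 and 8.96 ± 0.468 FPKM in the same groups, and both were higher in experimental than in control libraries (adjusted p = 4.03e-07 and 1.23e-08). Cdkn2d, another CDK inhibitor, was lower, at -2.05 (adjusted p = 9.39e-07). In intervention against experimental libraries 4 rose and 4 fell, where 15.9% of all entries rose and 3.6% fell, or 4 and 6 with median-ratio scaling (4.74% and 7.86% of all entries). The largest differences were those of Cdkn2d, Cdkn2c and Cdkn1b, which rose by 0.61, 0.42 and 0.40 (adjusted p = 0.0238, 0.0156 and 0.0167). Gadd45a, among the 4 that fell, was at -0.34 (adjusted p = 0.022) and was named after its value was seen.

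**Figure D5:**
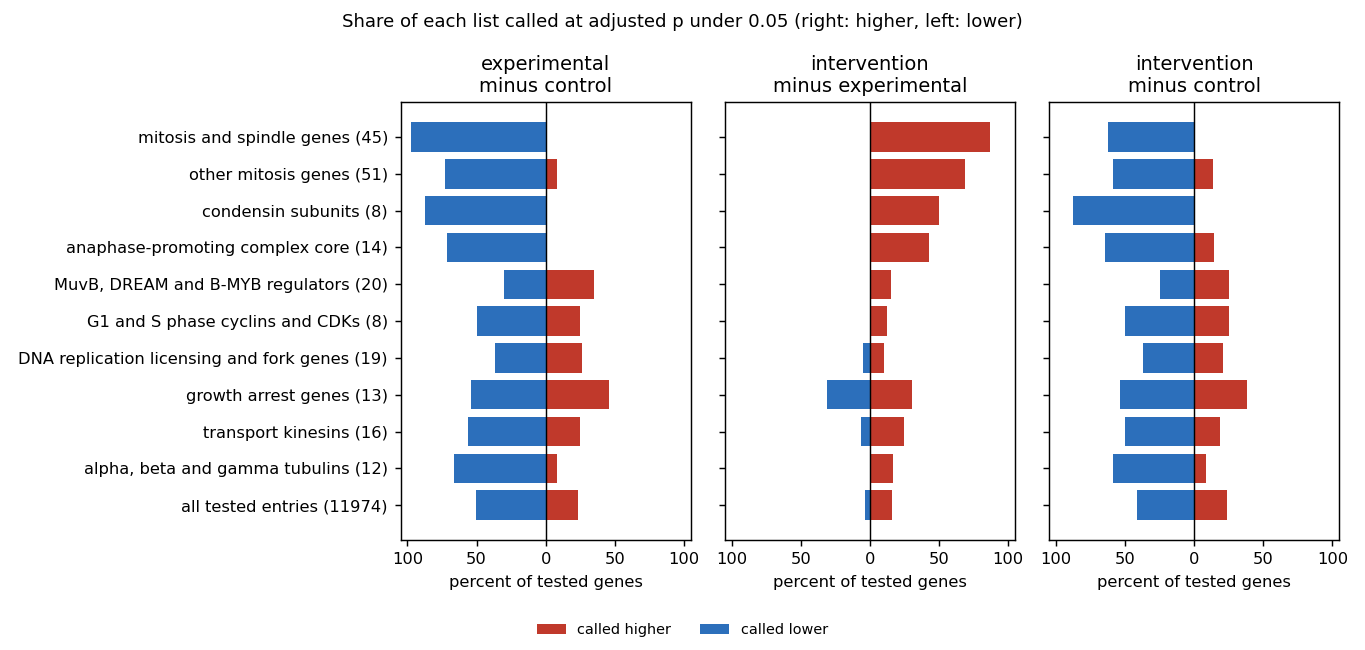
Percent of the tested genes of each list (number in brackets) called higher, drawn to the right, or lower, drawn to the left, at an adjusted p under 0.05 in the 3 comparisons, with all 11974 tested entries in the bottom row. Members, other mitosis genes and condensins are called mostly to the left in the first panel and to the right in the second, while replication and MuvB genes are called on both sides.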

How the data were processed

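RNA from 9 HT22 libraries, 3 per group, was sequenced on the Illumina NovaSeq platform (design text of the series). Per the labels' protocols RNA was purified with a Qiagen kit and made into libraries with a SMARTer mRNA kit. The authors deposited 1 table of FPKM per gene symbol and library, and the submitters' processing notes name the build mm10. Not given in the sources used here were aligner, counter, annotation and strand use. Whole reads could not be recovered, since 16.1% of the 8039 nonzero values of genes shorter than 200 nt were smaller than a single read would give at a depth of 200 M reads. The depth is therefore unknown, precision comes from the spread between replicates alone, and no count test was run.

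Values were transformed to log2(FPKM + 1), a scale that understates changes of low genes. Where a symbol occurred more than once (118 entries), the entry with the highest mean kept it. Group differences came from limma 3.58.1 under R 4.3.3 (trended eBayes, all 9 libraries in 1 fit, no covariate), with Benjamini-Hochberg adjustment over 11974 entries within a comparison, 2-sided, and a call at an adjusted p under 0.05. Every adjusted p given is from limma. An exact permutation test of 3 against 3 cannot go below p = 0.1 and was not used. Scripts were tested on simulated data.

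The members and lists were chosen with earlier results of these data known, so lists are described by counts and medians and not tested. Values in every library of the groups compared are given for 3 kinds of members. These are the most abundant gene of each role, its gene with the largest difference in each comparison, and members without a call in the first 2 comparisons. Up to 3 called genes per other list were eligible by size of difference. The labels name no pairing, so replicate numbers were not used to pair libraries in the main fit. Gene positions and overlaps came from GENCODE M21, and 14 of the 45 members share exon bases with another gene. Alternatives were another pseudocount (0.1), other filters, median-ratio, quantile and TPM scaling, a replicate block, 2-group fits and leaving out each library. Of the growth arrest list, Cdkn2a and Cdkn2b were not analysed here.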

Additional observations from a re-analysis of the deposited data

How the results depend on the processing

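Directions did not change in the first 2 comparisons in any of the 17 alternatives. Every member tested stayed below 0 for experimental minus control and above 0 for intervention minus experimental. Other filters, the replicate block, 2-group fits and leaving out a library of the uninvolved group cannot change a difference. The groups did not overlap for 44 and 43 of the 45 genes in these 2 comparisons. For those genes another pseudocount or a left-out library cannot turn the direction either, and only another scaling could. For the rest the direction was also open to change with another pseudocount or a library of the compared groups left out. For experimental minus control 5702 entries were called with a mean FPKM of at least 5, a filter that tests fewer entries. The members' median there was -0.49 with median-ratio scaling and -0.61 with quantile normalization. For intervention minus experimental the members called higher were 8 with no filter on low values and 25 with median-ratio scaling, and all entries called were 358 with no filter, 1509 with median-ratio scaling and 1038 with quantile normalization. Leaving out 1 library gave 0 to 40 members called higher and 1 to 2571 entries called. The lowest counts came without experimental replicate 1, experimental replicate 3 or intervention replicate 1, and 29 members and 939 entries were called without intervention replicate 3. For intervention minus control 5129 entries were called with a mean FPKM of at least 5, and 2 members were called higher with median-ratio scaling.

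Values near 0 changed sign for intervention minus control. With median-ratio scaling these were Cdk1 0.022, Bub1b 0.020, Mad2l1 0.022, Cdc20 0.12, Kif2c 0.015, Kif20b 0.089, Cenpf 0.059, Ndc80 0.083, Hmmr 0.037 and Incenp 0.027, and with quantile normalization Kif20b 0.019, Kif18a 0.11, Cenpf 0.050 and Ndc80 0.092. Leaving out 1 library gave -0.090 to 0.073 for Cdc20, -0.078 to 0.0011 for Kif20b, -0.16 to 0.017 for Cenpf and -0.079 to 0.042 for Ndc80. The cause was not tested.

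With the replicate number as a replicate block, 1268 entries and 35 members were called for intervention minus experimental, and 26 members were called lower for intervention minus control. Deviations of same-numbered libraries correlated at -0.182 to 0.11 across entries, and those of other-numbered libraries at -0.14 to 0.149. With 3 libraries per group these values cannot decide whether same-numbered libraries were paired or shared a batch. Depth is unknown, and 3 libraries per group set the precision.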

Other observations

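Genes of the microtubule system outside mitosis were counted as well. Of 12 tested tubulin genes 8 were lower and 1 higher in experimental than in control libraries (6 and 3 after median-ratio scaling). Of all tested entries 50.5% were lower and 23.5% higher (36.7% and 36.2% after median-ratio scaling). Tuba1a, an alpha-tubulin of neurons, averaged 208 ± 13.3 FPKM per experimental library and 429 ± 39.1 per control library (SD, n = 3 each, log2 difference -1.04, limma adjusted p = 1.7e-06), and Tubg1, gamma-tubulin, which nucleates microtubules, averaged 23.4 ± 0.471 and 39.4 ± 1.44 FPKM in the same order (adjusted p = 8.98e-07). In intervention relative to experimental libraries 2 tubulins rose, Tubb4b and Tubg1, and 0 fell (1 and 0 after median-ratio scaling). Of all entries 15.9% rose and 3.6% fell. Against control 1 tubulin was higher and 7 lower (1 and 6). Of all entries 24.1% were higher and 41.1% lower against control (32.3% and 32.8% after median-ratio scaling). Some alpha-tubulin and some beta-tubulin genes are near-identical, so how reads were split among those is uncertain.

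Of 16 tested kinesin genes outside the set, mostly of transport, 4 were higher and 9 lower in experimental than in control libraries (5 and 6 after median-ratio scaling), close to the shares of all entries given above for the tubulins. Kif2a, a microtubule depolymerase related to Kif2c, averaged 20.6 ± 1.42 FPKM per experimental library and 8.32 ± 0.535 per control library (log2 difference 1.21, adjusted p = 6.01e-07), while Kif2c fell by 0.80 on the log2 scale. Kifap3, the cargo adaptor of kinesin II, averaged 7.75 ± 0.728 and 20.1 ± 0.866 FPKM in the same order (log2 difference -1.27, adjusted p = 3.58e-07). In intervention against experimental libraries 4 rose and 1, Kif2a, fell (1 and 1 after median-ratio scaling), where 15.9% of all entries rose and 3.6% fell. Against control 3 were higher and 8 lower (5 and 5). After median-ratio scaling these were close to the shares of all entries against control given for the tubulins.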
